A study of Rattus norvegicus with 30 samples.

Results

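The genes described here are 9 enzymes of heme metabolism: Alas1, Alad, Uros, Urod, Cpox, Ppox and Fech, which build heme, and Hmox1 and Blvrb, which break it down. They were chosen as a named set, and every probe set annotated to one of these symbols alone was taken, which gave 10 probe sets of the 31042 tested (Uros had a pair, the other genes 1 each), for 9 of 14217 named genes. Expression was read on Affymetrix rat genome arrays from left-lobe liver RNA, 1 array per rat, in 30 female Sprague-Dawley rats 10 weeks of age. The control group (n = 10) stayed unhandled until necropsy on day 2. Rats handled for 1 day (n = 10) were weighed, restrained in Broome restrainers, given water by oral gavage and bled from the tail vein, with necropsy also on day 2. Those handled for 4 days (n = 10) were also weighed and restrained. They received water by gavage daily, were bled on the last day of dosing and came to necropsy on day 5. No unhandled rats were killed on day 5, so days of handling and day of necropsy cannot be told apart in the last group. No animal received a compound or carried a transgene. The study asked how far handling by itself moves gene expression in liver.

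Heme is the iron-containing ring that catalase, the cytochromes and the cytochrome P450 enzymes carry. Its synthesis starts in the mitochondrion, where Alas1 joins glycine and succinyl-CoA in the rate-limiting step of liver, continues in the cytosol through Alad, Uros and Urod, and returns to the mitochondrion for Cpox, Ppox and Fech, the last of which inserts iron. Hmox1 opens the ring and releases iron, carbon monoxide and biliverdin. Blvrb is a reductase of biliverdin and flavins. In liver Alas1 is known to be repressed by heme and to answer to fasting, drugs and the circadian clock.

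RefSeq promoters (GRCr8, 250 bases before to 50 after the start) were held for 7 of the 9 genes, all but Cpox and Hmox1. Those of Alas1 and Ppox are shown because these were the genes with the largest differences from control. The Alas1 promoter lies on the minus strand at chr8:115768593-115768892. Its capitals mark the one match to the palindromic site of NRF1, a transcription factor of mitochondrial genes. The Ppox promoter lies on the minus strand at chr13:86234197-86234496, and its capitals mark 3 CCAAT boxes, the first of them as the reverse complement.
Alas1: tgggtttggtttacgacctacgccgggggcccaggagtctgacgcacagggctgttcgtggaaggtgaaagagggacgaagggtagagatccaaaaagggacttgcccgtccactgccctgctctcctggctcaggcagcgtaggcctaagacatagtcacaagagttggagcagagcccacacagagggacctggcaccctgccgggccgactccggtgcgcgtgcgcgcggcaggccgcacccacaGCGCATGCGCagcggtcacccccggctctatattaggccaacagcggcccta
Ppox: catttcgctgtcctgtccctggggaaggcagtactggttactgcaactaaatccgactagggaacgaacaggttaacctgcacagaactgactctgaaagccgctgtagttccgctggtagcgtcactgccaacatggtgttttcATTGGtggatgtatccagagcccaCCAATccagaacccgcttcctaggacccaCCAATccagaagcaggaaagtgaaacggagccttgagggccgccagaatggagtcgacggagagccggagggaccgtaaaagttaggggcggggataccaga
Of 6 motifs searched on both strands, the NRF1 site was found in 1 of the 7 member promoters (bases -2 to 8 of Alas1) and in 0.852% of 33469 promoters of the same length. CCAAT was found in 2 of 7 (Ppox and Alad) and in 37.5% of all promoters. The E-box CACGTG was found in 2 of 7 (Alad and Urod) and in 6.42%. The antioxidant response element core TGACNNNGC (12.1% of all promoters), the sterol regulatory element TCACNCCAC (1.12%) and the ROR element core TAGGTCA (2.63%) had no match among the 7. No motif overlapped another in the promoters printed. A match is a match of letters and was not tested as a binding site.

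None of the 10 probe sets passed the test in any comparison. The test was limma on log2 intensity with Benjamini-Hochberg adjustment over all 31042 probe sets, and a call was an adjusted p under 0.1. After 1 day of handling 0 of 10 were called, where 28 of all probe sets (0.0902%) were. After 4 days 0 of 10 were called, where 204 (0.657%) were. Between 4 days and 1 day 0 of 10 and 0 of all probe sets (0%) were called, and the smallest adjusted p over all probe sets was 0.815. The t-test of the methods and an exact rank-sum test, adjusted in the same way, also called 0 of 10 in each comparison. At an unadjusted p under 0.05, 2 of 10 (Alas1 and Ppox) passed in limma after 1 day against 9.33% of all probe sets. After 4 days 0 of 10 passed against 11.3%, and between the handled groups 0 of 10 passed against 5%. The absolute log2 difference of the 10 probe sets had a median of 0.113 after 1 day and 0.124 after 4 days, beside 0.119 and 0.125 over all probe sets. Both comparisons with control use the same 10 control rats, so their values are not independent of each other.

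Control rats 1, 2 and 3 stood apart from all other arrays on the first principal component (52.3 or more, against 1.76 or less in the other 27 rats). Values that moved by over 1.5 times or turned without them are therefore given both ways. Of all probe sets 2.95% were higher and 3.03% lower in each of these 3 rats than in all the other 27, and 1 of the 10 member probe sets (Ppox) was higher. The Gapdh 3′ to 5′ signal ratio, a sign of RNA or labelling quality, also moved with the groups. Its log2 value ran from 0.55 to 0.70 in controls, 0.66 to 0.83 after 1 day and 0.70 to 0.96 after 4 days. Its part in the differences below was not tested beyond a fit with the ratio as a covariate. Array medians were alike, between 0.118 and 0.125 in every group, and intensities are relative to an array mean of 1. The 10 probe sets have no common scale of length or affinity, so their levels were not compared with each other.

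**Figure D1:**
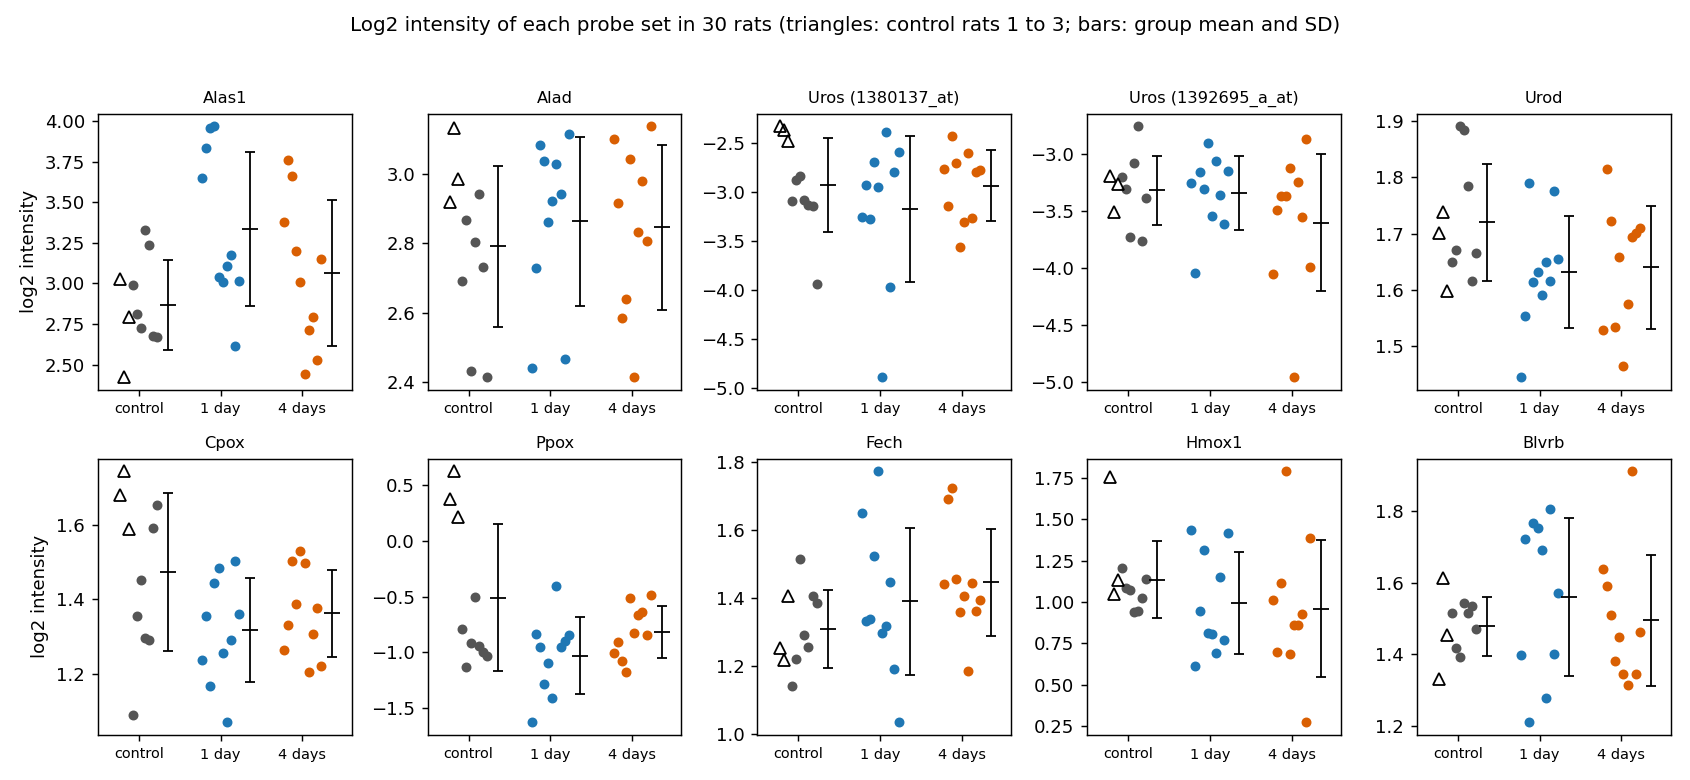
Log2 intensity of the 10 probe sets (vertical axis, one panel each) in 10 control rats, 10 rats handled for 1 day and 10 handled for 4 days. Each point is 1 rat, triangles are control rats 1 to 3, and bars give the group mean and SD; the handled rats overlap the controls in every panel, and the 3 triangles of Ppox lie above all other points.

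Alas1, the rate-limiting enzyme, had the highest single values in a subset of the handled rats. In control rats 1 to 10 its intensity was 8.17, 5.36, 6.92, 7.94, 7.03, 6.62, 10.0, 9.43, 6.39 and 6.37. After 1 day of handling the 10 rats gave 12.5, 14.3, 15.6, 15.7, 8.21, 8.05, 8.61, 9.02, 6.13 and 8.10. After 4 days they gave 10.4, 13.6, 12.7, 9.19, 8.06, 5.44, 6.57, 6.93, 5.76 and 8.89. Rats 1 to 4 of the 1-day group and rats 1 to 3 of the 4-day group lay above every control, and the other 13 handled rats lay within the control range. At least 4 of 10 rats above every control were found for 4.52% of all probe sets after 1 day, and at least 3 of 10 for 11.9% after 4 days. The SD of log2 Alas1 was 0.28 in controls, 0.48 after 1 day and 0.45 after 4 days. The mean log2 intensity was 0.47 higher after 1 day (SE 0.18, 95% interval 0.10 to 0.84, n = 10 per group), with a limma p of 0.014 before adjustment and 0.410 after. The difference without control rats 1 to 3 was 0.42 (limma p 0.050, adjusted 0.589). After 4 days it was 0.20 (95% interval -0.17 to 0.56, limma adjusted p 0.724). The 4-day group differed from the 1-day group by -0.27 (95% interval -0.64 to 0.09, limma adjusted p 0.995).

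The handled rats with the highest Alas1 had lower intensities of Nr1d1 than most rats of their group. Nr1d1 encodes the clock repressor REV-ERB alpha, which is known to act on Alas1. It is one of the listed regulators and was singled out after its values were seen. In the 1-day group the 4 rats with the highest Alas1 had Nr1d1 intensities of 0.131, 0.195, 0.204 and 0.257, and the other 6 rats ran from 0.206 to 0.937. In the 4-day group the 3 rats with the highest Alas1 had 0.148, 0.211 and 0.212, and the other 7 ran from 0.274 to 0.758. The value of 0.274 was that of rat 6, which had the lowest Alas1 of the 4-day group (5.44). Control rats 1 to 3 had lower Nr1d1 still (0.0803, 0.114 and 0.0948, against 0.507 to 0.977 in control rats 4 to 10), yet their Alas1 was within the range of the other controls or below it. In all 3 groups the lowest Nr1d1 was thus in low-numbered rats. Neither how rats were numbered nor the hour at which each was killed is in the labels, and the part of the clock in the Alas1 values was not tested. The group differences of Nr1d1 itself were -0.32 after 1 day (limma adjusted p 0.867) and -0.29 after 4 days (0.864). When control rats 1 to 3 were left out they were -1.21 (limma adjusted p 0.196) and -1.17 (0.139).

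**Figure D2:**
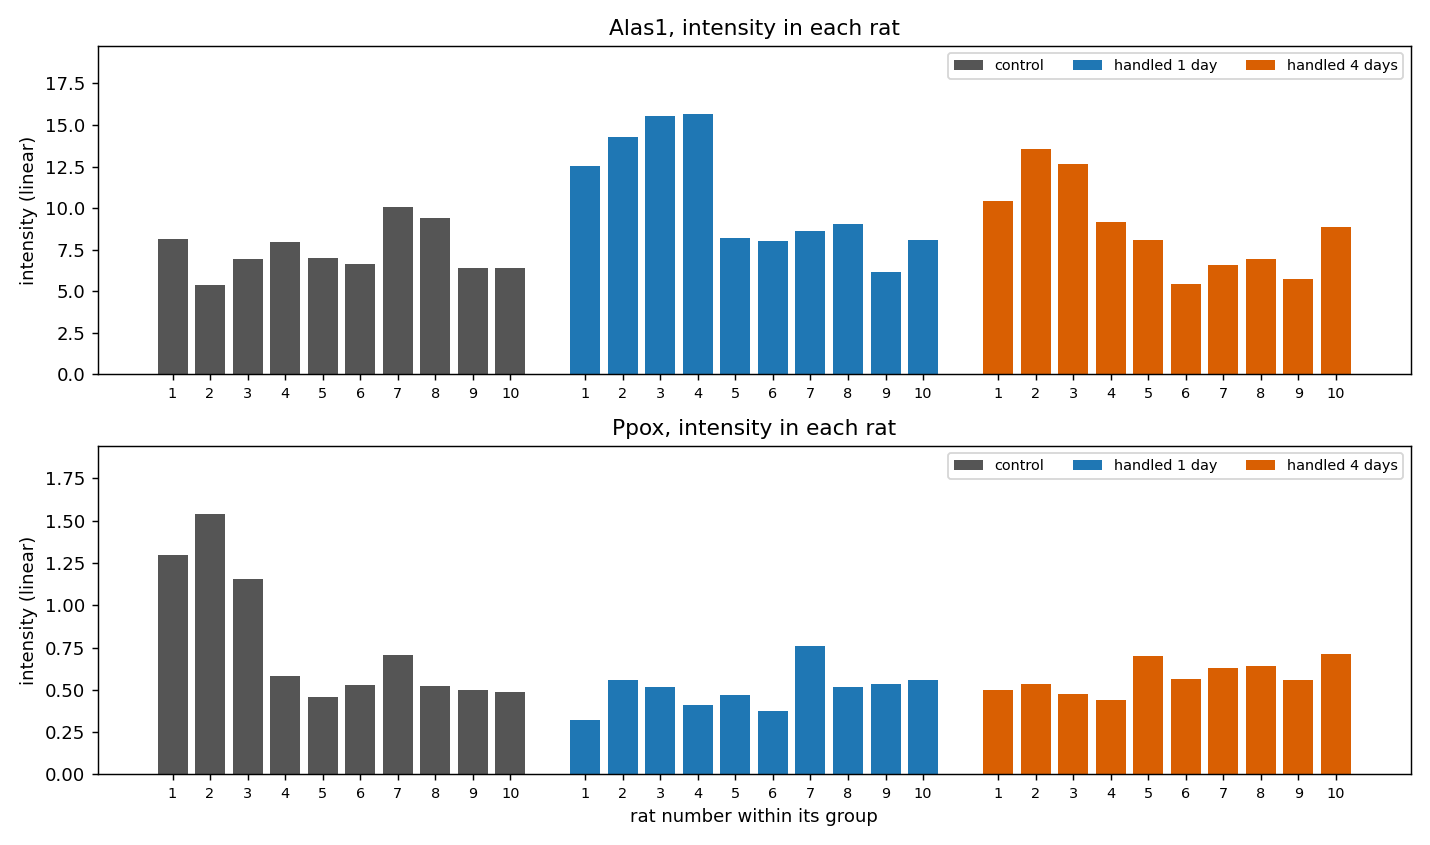
Intensity of Alas1 and of Ppox in each of the 30 rats, by group and rat number; the labels do not say how the rats were numbered. For Alas1, 4 rats handled for 1 day and 3 handled for 4 days exceed every control, and control rats 1 to 3 exceed all other rats for Ppox.

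Of the cytosolic enzymes none was called. Alad, which joins pairs of aminolevulinic acid into the first pyrrole, ran from 5.33 to 8.77 in controls (median 7.14), 5.43 to 8.67 after 1 day (median 7.64) and 5.33 to 8.81 after 4 days (median 7.34). The 3 ranges were almost the same. Its differences from control were 0.07 (95% interval -0.15 to 0.29) and 0.05 (-0.17 to 0.27) on the log2 scale. Control rats 1 to 3 ran from 7.56 to 8.77 and control rats 4 to 10 from 5.33 to 7.69, and without the first 3 the differences were 0.17 (95% interval -0.07 to 0.40) and 0.15 (-0.09 to 0.39).

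Uros, which closes the ring, was measured by a pair of dim probe sets close to the overall median intensity of 0.122, so their values are imprecise. Probe set 1380137_at ran from 0.0653 to 0.199 in controls (median 0.127), 0.0338 to 0.191 after 1 day (median 0.130) and 0.0846 to 0.185 after 4 days (median 0.145). Its log2 differences were -0.24 (95% interval -0.73 to 0.24) and -0.01 (-0.49 to 0.48). Control rats 1 to 3 gave 0.179 to 0.199, above the 0.0653 to 0.139 of control rats 4 to 10, and without them the differences were -0.01 after 1 day and 0.22 after 4 days. Probe set 1392695_a_at ran from 0.0739 to 0.149 in controls, 0.0606 to 0.134 after 1 day and 0.0322 to 0.137 after 4 days, with differences of -0.02 (-0.40 to 0.36) and -0.28 (-0.67 to 0.10). No interval of either probe set was clear of 0.

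Urod, which trims the side chains of the ring, was measured more tightly. It ran from 3.03 to 3.71 in controls (median 3.22), 2.72 to 3.46 after 1 day (median 3.08) and 2.76 to 3.52 after 4 days (median 3.20). Of the rats, 3 handled for 1 day and 4 handled for 4 days lay below every control, counts that 10.8% and 5.52% of all probe sets reached or exceeded. The differences were -0.09 (SE 0.06, 95% interval -0.20 to 0.03, limma adjusted p 0.664) and -0.08 (-0.20 to 0.04, limma adjusted p 0.632). Both intervals reached down to -0.20.

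For Cpox and Ppox, which act in the mitochondrion, control rats 1 to 3 set much of what the comparisons gave. Cpox, which makes protoporphyrinogen, was 3.20, 3.35 and 3.01 in control rats 1, 2 and 3, and 2.13, 2.56, 2.74, 2.45, 2.45, 3.01 and 3.14 in control rats 4 to 10. It ran from 2.10 to 2.84 after 1 day (median 2.50) and from 2.31 to 2.89 after 4 days (median 2.56). Control rats 1 to 3, 9 and 10 had the highest values, above the range of the handled rats. These controls were picked out after their values were seen, and no share of all probe sets was computed for such a split. The handled rats overlapped with control rats 4 to 8. The difference after 1 day was -0.16 (SE 0.08, 95% interval -0.31 to 0.00, limma adjusted p 0.541), and -0.07 without the 3 rats. After 4 days it was -0.11 (limma adjusted p 0.620), and -0.03 without them.

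Ppox, which oxidises protoporphyrinogen, showed the split most plainly. Its intensity was 1.30, 1.54 and 1.16 in control rats 1, 2 and 3, and 0.580, 0.458, 0.531, 0.707, 0.520, 0.500 and 0.488 in control rats 4 to 10. After 1 day it was 0.324, 0.561, 0.517, 0.412, 0.467, 0.377, 0.757, 0.517, 0.536 and 0.558. After 4 days it was 0.499, 0.533, 0.475, 0.443, 0.700, 0.563, 0.630, 0.641, 0.557 and 0.714. The 3 rats lay above all the other 27, and the other 7 controls overlapped with both handled groups. With all rats the difference after 1 day was -0.52 (SE 0.20, 95% interval -0.92 to -0.12), with a limma p of 0.013 before adjustment and 0.405 after. Without the 3 rats it was -0.13 (95% interval -0.40 to 0.15, limma adjusted p 0.861). After 4 days it was -0.30 with them (95% interval -0.70 to 0.10, limma adjusted p 0.585) and 0.09 without them (95% interval -0.19 to 0.36, limma adjusted p 0.864), so the sign turned. The unadjusted result for Ppox after 1 day thus rested on 3 control arrays.

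Fech, which inserts the iron, ran from 2.21 to 2.85 in controls (median 2.42), 2.05 to 3.42 after 1 day (median 2.52) and 2.27 to 3.30 after 4 days (median 2.68). Among the handled rats, 3 of the 1-day group and 2 of the 4-day group exceeded every control, as at least as many did for 10% and 23.4% of all probe sets. In the 4-day group 9 of 10 rats were above the control median, and the share of all probe sets that reached this was not computed. The differences were 0.08 (95% interval -0.08 to 0.24, limma adjusted p 0.792) and 0.14 (-0.03 to 0.30, limma adjusted p 0.536). The second had the smallest adjusted p of the 10 probe sets after 4 days and remained far from the threshold.

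**Figure D3:**
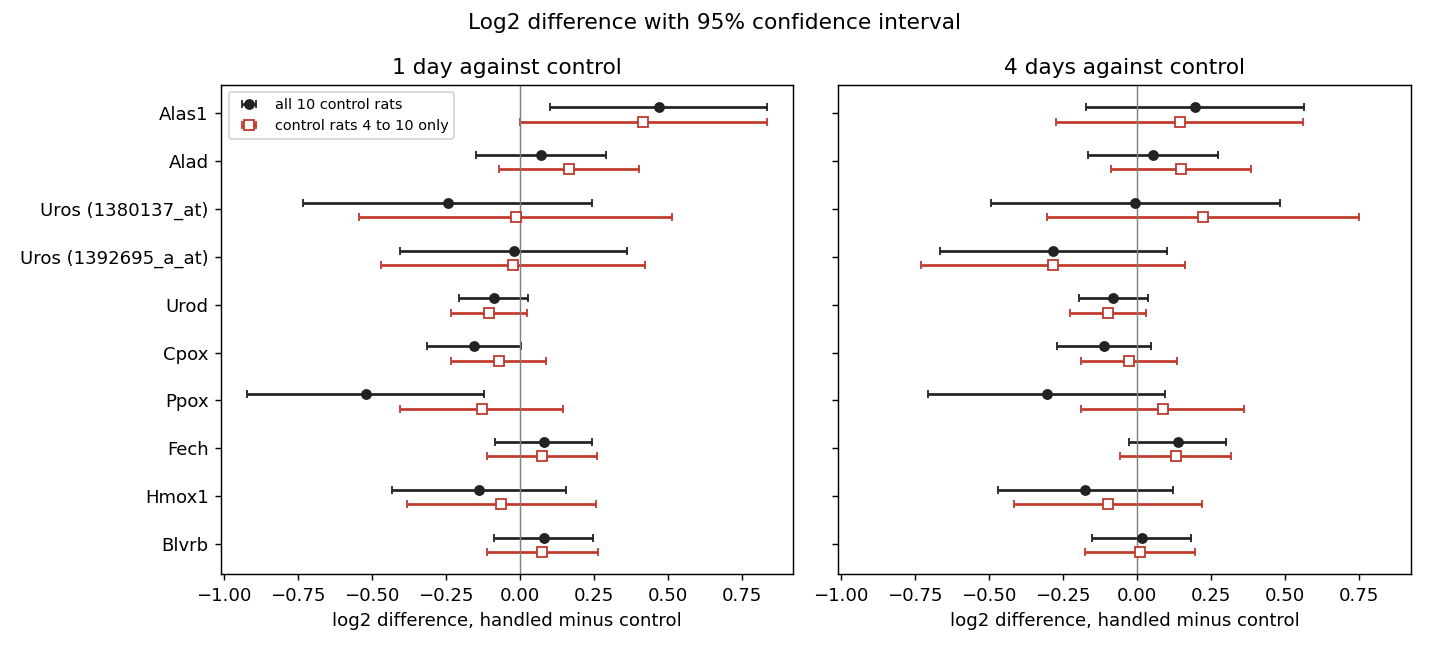
Log2 difference from control of the 10 probe sets after 1 day and after 4 days, with 95% intervals (horizontal axis), for all 10 control rats and without control rats 1 to 3. The intervals of Alas1 and Ppox after 1 day are the ones clear of 0 with all rats, and neither is without the 3 rats.

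Hmox1, the inducible heme oxygenase, spread more widely in the handled rats than in most controls. It was 3.38, 2.07, 2.19, 2.30, 2.12, 2.10, 1.92, 1.92, 2.03 and 2.20 in control rats 1 to 10. After 1 day it was 2.70, 1.53, 1.93, 2.48, 1.76, 1.75, 1.61, 2.22, 1.70 and 2.67. After 4 days it was 2.02, 1.62, 2.16, 3.46, 1.61, 1.81, 1.81, 1.90, 1.21 and 2.61. After 1 day 5 rats and after 4 days 6 rats lay below every control, and 1 rat handled for 4 days lay above. Over all probe sets, 2.22% had at least 5 rats below every control after 1 day and 1.25% had at least 6 after 4 days. The differences were -0.14 after 1 day (SE 0.14, 95% interval -0.43 to 0.16, limma adjusted p 0.808) and -0.17 after 4 days (95% interval -0.47 to 0.12, limma adjusted p 0.691). Both intervals include 0. The sign of both differences is opposite to the increase the study gives for this gene. That increase came from error-weighted log10 ratios, a measure not used here, and both intervals also hold small positive differences. The differences were -0.06 and -0.10 without control rats 1 to 3, the first of which held the highest control value.

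Blvrb, a reductase of biliverdin and flavins, ran from 2.51 to 3.06 in controls (median 2.81), 2.31 to 3.50 after 1 day (median 3.10) and 2.49 to 3.76 after 4 days (median 2.74). After 1 day 5 rats lay above every control, which 2.05% of all probe sets reached or exceeded, and 2 lay below. The SD of log2 Blvrb was 0.08 in controls, 0.22 after 1 day and 0.18 after 4 days. The means differed by 0.08 (95% interval -0.09 to 0.25, limma adjusted p 0.798) and 0.02 (-0.15 to 0.18, limma adjusted p 0.966), and the second was 0.01 without control rats 1 to 3. Over the 10 probe sets, the SD was wider in both handled groups than in controls for 6 (Alas1, Alad, Uros 1392695_a_at, Fech, Hmox1 and Blvrb), against 27.2% of all probe sets, and narrower in both for 2 (Cpox and Ppox), against 43.7%. Set against control rats 4 to 10 alone it was wider in both for 6 of 10, against 42.2% of all probe sets. These were Alas1, Alad, Ppox, Fech, Hmox1 and Blvrb, without Uros 1392695_a_at. Ppox was thus narrower in both handled groups only with control rats 1 to 3 included. The differences in spread were not tested.

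No pair of the 10 probe sets passed a test for varying together between rats. Over the 27 rats other than control rats 1 to 3, with group means removed, the 45 pairs of probe sets gave Pearson r between -0.46 (Ppox and Fech) and 0.41 (Urod and Ppox), and 25 of 45 were above 0. Permutation within groups (100000 draws) gave no pair an adjusted p under 0.1, and the smallest was 0.488. For Ppox and Fech, Spearman's rho was -0.46 (permutation p 0.034 for r and 0.024 for rho), and r was -0.39 without the 2 rats farthest from the median. For Urod and Ppox, rho was 0.38 (permutation p 0.035 and 0.055), and r was 0.31 without 2 such rats.

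Among 12132 probe sets of named genes above the median intensity, those most like Alas1 over the same 27 rats were Nr0b2, the nuclear receptor SHP (r = 0.77), Akap17a (0.76), Sash1 (0.71), Zmym6 (0.71) and Cstf3 (0.70). Those most like Hmox1 were F8, coagulation factor VIII (r = 0.77), Lta4h, leukotriene A4 hydrolase (0.73), Msn, moesin (0.69), Emb (0.66) and Evl (0.66). No p belongs to these values, because the genes were picked for them. All points share arrays, and none of the 10 genes was called in either comparison with control.

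The other genes of the pathway were followed through 7 lists with 71 genes, of which 62 were measured. After 1 day 0 of 62 were called, against 0.0902% of all probe sets, and 14 had an unadjusted limma p under 0.05, against 9.33%. After 4 days 0 rose and 1 fell (Abcc2), against 0.657% called, and 14 had an unadjusted p under 0.05, against 11.3%. The list genes were measured by their brightest probe set, and all probe sets include the dim ones. The median log2 difference was 0.03 in both. Without control rats 1 to 3, when 0.329% and 0.828% of all probe sets were called, 2 of 62 rose and 1 fell after 1 day, and 3 rose and 1 fell after 4 days.

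**Figure D4:**
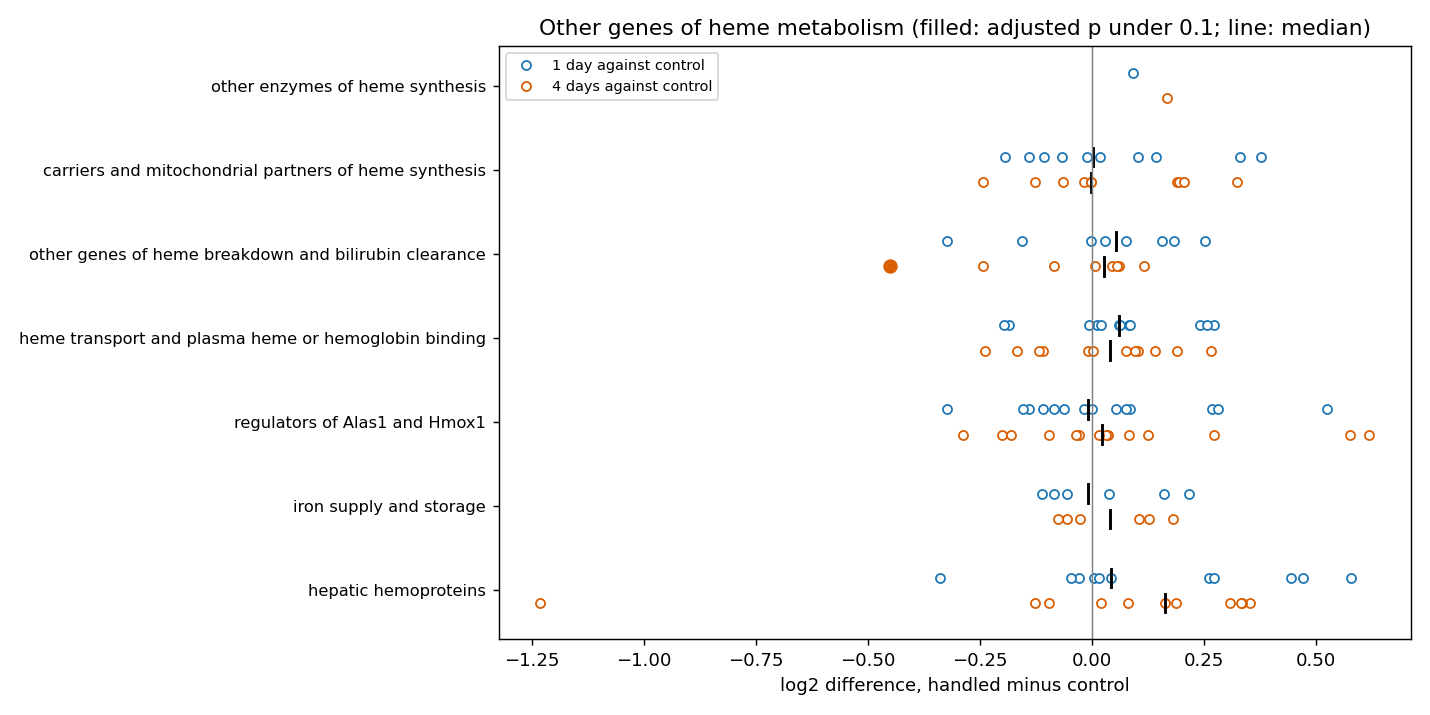
Log2 difference from control (horizontal axis) of the 62 measured genes in the 7 pathway lists, after 1 day and after 4 days; each point is 1 gene, filled where the adjusted p was under 0.1, and the line is the list median. Abcc2 after 4 days is the only filled point.

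Clpx, the mitochondrial unfoldase that acts on Alas proteins, separated the handled rats from most controls. Its intensity was 6.61, 6.42 and 6.31 in control rats 1, 2 and 3, and 4.91, 5.12, 5.0, 5.11, 4.69, 4.96 and 4.57 in control rats 4 to 10. It was 6.98, 8.33, 7.35, 7.43, 7.11, 7.09, 6.69, 7.62, 5.77 and 5.30 after 1 day. It was 7.75, 6.52, 7.02, 6.84, 7.85, 6.31, 5.78, 7.08, 6.0 and 5.87 after 4 days. All 20 handled rats exceeded control rats 4 to 10, which 0.0129% of all probe sets did. Control rats 1 to 3 lay among the handled rats. Clpx was named for its small p, so this share is not a test. Its lowest handled values were in rats 9 and 10 after 1 day, and in rats 7, 9 and 10 after 4 days. Neither how rats were numbered nor the hour of killing is in the labels, and their part in the Clpx values was not tested. With all controls the differences were 0.38 (SE 0.09, 95% interval 0.20 to 0.55, limma adjusted p 0.107) and 0.32 (0.15 to 0.50, limma adjusted p 0.104), just short of the threshold. Without control rats 1 to 3 they were 0.49 (limma adjusted p 0.00854) and 0.44 (0.0135), and both were called. That fit kept rats 1 to 3 of the handled groups. Leaving out 1 rat at a time, the call after 1 day was reached in 4 of 30 fits (without control rat 1 or 2, or rat 9 or 10 of the 1-day group). The call after 4 days was reached in 5 of 30 (without control rat 1 or 2, rat 10 of the 1-day group, or rat 7 or 9 of the 4-day group). With the Gapdh ratio as a covariate the Clpx differences were 0.33 (limma adjusted p 0.498) and 0.27 (0.536).

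Tmem14c, which carries protoporphyrinogen into the mitochondrial matrix, differed by 0.33 after 1 day (limma adjusted p 0.289) and 0.19 after 4 days (0.491). Control rats 1 to 3 had 4.49, 6.22 and 5.96, below the 6.94 to 10.4 of the other 27 rats. Without them the differences were 0.14 and 0.00. Alas2, the synthase of red cell precursors, differed by 0.09 (limma adjusted p 0.922) and 0.17 (0.813).

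On the side of breakdown, Abcc2, the canalicular pump that exports conjugated bilirubin, fell after 4 days. Its intensity was 9.27, 6.34, 11.7, 14.2, 14.3, 11.1, 12.4, 9.83, 10.7 and 9.15 in control rats 1 to 10. It ran from 6.54 to 10.4 after 1 day (median 8.40) and was 7.54, 7.98, 7.22, 7.18, 6.64, 6.63, 9.31, 9.38, 8.46 and 8.00 after 4 days. The groups overlapped, chiefly through control rat 2 at 6.34. The difference was -0.32 after 1 day (SE 0.11, limma adjusted p 0.347) and -0.45 after 4 days (95% interval -0.68 to -0.22, limma adjusted p 0.0847). Without control rats 1 to 3 it was -0.44 (limma adjusted p 0.0752) and -0.57 (0.0128). The call after 4 days was lost in 12 of 30 fits that left out 1 rat, where the adjusted p ran from 0.0251 to 0.142: those without control rats 1, 3, 4, 5 or 6, or without rats 1, 2, 3, 4, 5, 6 or 10 of the 4-day group. With the Gapdh ratio as a covariate the difference was -0.39 (limma adjusted p 0.501).

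**Figure D5:**
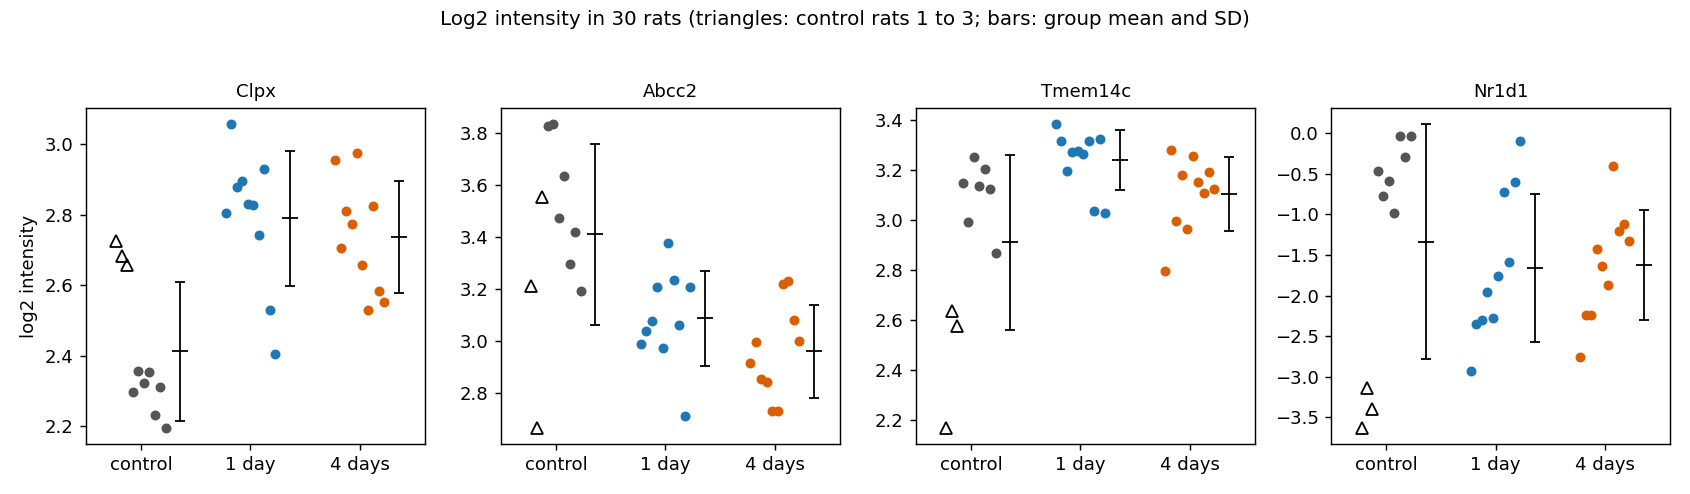
Log2 intensity of Clpx, Abcc2, Tmem14c and Nr1d1 in the 30 rats by group; points are rats, triangles are control rats 1 to 3, and bars give the group mean and SD. For Clpx all 20 handled rats lie above the 7 round control points and the triangles lie among the handled rats, and for Nr1d1 and Tmem14c the triangles lie below all other rats.

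In the list of heme and hemoglobin carriers 0 of 12 were called. Lrp1, the receptor that takes up hemopexin with its heme, differed by 0.27 in both groups (limma adjusted p 0.289 and 0.199), and Pgrmc2, a heme chaperone, by 0.24 and 0.08 (0.316 and 0.773), the second 0.16 without control rats 1 to 3. Of 14 regulators of Alas1 and Hmox1, 0 were called. Foxo1, a fasting-response activator, differed by 0.27 and 0.58 (limma adjusted p 0.642 and 0.131) and Nr3c1, the glucocorticoid receptor, by -0.11 and -0.18 (0.659 and 0.295). Foxo1 after 4 days was called without control rat 7 (0.67, limma adjusted p 0.0423) or without rat 2 of the 4-day group (0.67, 0.0607), and in 5 of 16 alternatives that left out no single rat. Of 6 measured genes of iron supply and storage, 0 were called. Aco1, the iron regulatory protein, differed by 0.22 and 0.13 (limma adjusted p 0.274 and 0.475), and Slc40a1, the iron exporter ferroportin, by 0.16 and 0.11 (0.504 and 0.624). Leaving out control rats 1 to 3 gave 0.06 for Aco1 after 4 days, and 0.09 and 0.03 for Slc40a1.

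Of 11 measured genes of hepatic hemoproteins, the consumers of heme, and of their partners, 0 were called. Cyp7a1, the rate-limiting enzyme of bile acid synthesis, differed by -0.34 after 1 day (limma adjusted p 0.811) and -1.23 after 4 days (0.143). Its values in control rats 1 to 3 (7.84, 10.9 and 8.23) lay above the 0.494 to 5.56 of the other 27 rats, and without them the differences were 0.17 and -0.72. The difference after 4 days was called without control rat 4 (-1.42, limma adjusted p 0.0793) or rat 6 of the 4-day group (-1.43, 0.0793), and in 2 of 16 alternatives that left out no single rat. Cyp1a2, an enzyme of drug oxidation, differed by 0.26 and 0.31 (limma adjusted p 0.377 and 0.166), and by 0.37 after 4 days without the 3 rats (0.0950, called). Cyp51, an enzyme of cholesterol synthesis outside the naming rule and added after its values were seen, completed the genes called without the 3 rats. It was 13.1, 17.5 and 16.1 in control rats 1 to 3 and 2.64 to 10.1 in the other 27. Its differences were 0.27 and 0.16 with all controls (limma adjusted p 0.760 and 0.849), and 0.77 and 0.66 without the 3 (0.0385 and 0.0562). Of the 62 genes, 5 (Blvra, Hebp1, Cyb5r3, Cyp7a1 and Cyp51) were higher and 3 (Tmem14c, Nr1d1 and Cyp4a1) lower in control rats 1 to 3 than in all the other rats, beside 2.95% and 3.03% of all probe sets.

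Marker genes of the cells in the samples were summed in each rat. Those of hepatocytes (5 of 6 measured) gave 244 to 287 in controls, 253 to 276 after 1 day and 249 to 286 after 4 days, and none was below the array median. Those of red cells and their precursors (8 of 12 measured, 5 below the array median) gave 12.3 to 24.5, 12.9 to 26.3 and 10.9 to 32.3, nearly all of it Hbb, the hemoglobin chain (11.8 to 23.4, 12.2 to 25.5 and 10.3 to 31.2). Those of Kupffer cells, the liver macrophages that clear red cells and express Hmox1 (8 of 11 measured), gave 24.3 to 39.1, 25.3 to 41.6 and 21.5 to 29.9, with medians of 30.3, 32.4 and 26.5. Those of neutrophils (4 of 6 measured, 3 below the array median) gave 0.221 to 0.548, 0.230 to 0.755 and 0.214 to 1.15. Of these markers 0 were called after 1 or 4 days, where 0.0902% and 0.657% of all probe sets were. After 4 days 4 of the 8 Kupffer markers had an unadjusted limma p under 0.05, against 11.3% of all probe sets. The median log2 difference of the Kupffer list was 0.06 after 1 day and -0.20 after 4 days, against -0.003 and 0.002 over all probe sets. Without control rats 1 to 3 the medians of the list were -0.03 and -0.29. The part of the Kupffer markers in the Hmox1 values was not tested. In whole tissue, fewer cells of a type and less RNA per cell cannot be told apart.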

How the data were processed

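The authors labelled liver RNA with the GeneChip 3′ IVT Express kit, scanned 30 Affymetrix arrays in GCOS and deposited linear probe set intensities. The values have a mean of 1 on each array, a scaling read here from the values since the methods do not describe it. The log10 ratios the authors tested were not used here. Log2 of the deposited intensity, with no offset, was fitted in limma 3.58.1 (R 4.3.3), with the 3 groups in 1 fit, Benjamini-Hochberg adjustment over 31042 probe sets (57 Affymetrix controls left out) and a threshold of 0.1, two-sided. Of these probe sets 20826 had 1 gene symbol in the platform annotation, 436 several and 9780 none. For a listed gene, the probe set with the highest mean stood for it.

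The members, lists and tests were chosen with earlier results of these data known. Named were all members, list genes called against control or otherwise up to 2 per list with the smallest p, and the 5 genes most correlated with Alas1 and with Hmox1. No 2 arrays were identical (highest correlation 0.976). The labels do not say that rats with the same number were paired, so the fit had no block. Deviations of same-numbered rats correlated between -0.04 and 0.12. Their medians were 0.04 (1 day against control), 0.04 (4 days against control) and 0.05 (4 days against 1 day). Rats of other numbers had a median of -0.01 in each. What same-numbered rats share was not tested. Each rat is 1 replicate, and precision is limited by how many arrays a group has. Alternatives changed the offset, normalization, filter, test, threshold and rats included. The fitting was tested on simulated data. Figures were drawn with matplotlib 3.10.9 (Python 3.11.15).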

Additional observations from a re-analysis of the deposited data

Results flagged for a closer look

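In 30 groups of 10 rats (10 probe sets in 3 groups), the lowest or highest rat was set against the range of its group, and 2 stood clear of the others, where chance gives about 1.5. Hmox1 was 3.38 in control rat 1 (intensity), while the other control rats ran from 1.92 to 2.30. The gap was 0.678 of the range of the group on the log2 scale. Uros (probe set 1380137_at) was 0.0653 in control rat 10, with the next control rat at 0.113 and the highest at 0.199, a gap of 0.492 of the range on the log2 scale.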

How the results depend on the processing

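The number of member probe sets called stayed at 0 in all 3 comparisons under 46 alternatives, 30 of which left out 1 rat. Of 918 recomputed differences of the members from control, 895 kept their sign, 23 turned and 0 were called. With array weights Uros (1380137_at) after 4 days was 0.084. In the fit with the Gapdh covariate it was 0.17, Fech after 1 day was -0.0034, Blvrb was -0.0055 after 1 day and -0.087 after 4 days, and Alas2, a listed gene outside these counts, was -0.022 after 1 day. Without control rats 1, 2 and 3, Uros (1380137_at) after 4 days was 0.22, Ppox after 4 days was 0.087 and Cyp7a1, also a listed gene, was 0.17 after 1 day. Leaving out 1 rat at a time, the ranges that crossed 0 were -0.12 to 0.063 for Uros (1380137_at) after 4 days, -0.070 to 0.058 for Uros (1392695_a_at) after 1 day, -0.030 to 0.036 for Blvrb after 4 days and -4.5e-07 to 0.17 for Alas2 after 1 day. The cause was not tested. The counts over all probe sets moved more than those of the members. After 1 and 4 days 28 and 204 were called as reported, 45 and 346 with an offset of 0.05, 127 and 467 with an offset of 1, 69 and 370 with an intensity trend, 21 and 137 with array weights, 55 and 152 by the t-test of the methods, 64 and 221 with 1 probe set per gene, 1 and 70 at an adjusted p under 0.05, 144 and 267 at an unadjusted p under 0.001, 0 and 5 with the Gapdh covariate, 1 and 27 with the compared groups alone, and 113 and 490 without the dimmest 40% of probe sets, where all 10 member probe sets stayed. A block of replicate number, a pairing the labels do not give, called 2 and 85 of all probe sets and 0 members. In that fit Abcc2 after 4 days was no longer called (limma adjusted p 0.133). Each sample correlated best with its own number in 2 to 6 of 10 rats per pair of groups. In each pair this is more than the average if every number were equally likely, and the excess was not tested. Clpx was called in 9 of 16 alternatives after 1 day and 10 of 16 after 4 days, leave-one-out fits aside, Abcc2 after 4 days in 10 of 16, Foxo1 after 4 days in 5 of 16 and Cyp7a1 after 4 days in 2 of 16. Signal over background limits the Uros values, both near the array median.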
